A study of Rattus norvegicus with 20 samples.

Results

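The red tibialis anterior (red TA), the deep oxidative part of the ankle flexor of the lower leg, was described from the 5 arrays of lean control rats, out of 20 arrays of 4 groups in the whole series. The arrays were chosen by their labels alone, and no other group was used. The lean controls were male rats of the strain tag Zucker, set apart from the Zucker diabetic fatty (ZDF) rats by the methods of the study although the housing notes head all animals as ZDF. They were kept singly under a reversed light and dark cycle with free access to food and standard chow, with no drug named for them. Neither the age of the rats, their genotype at the leptin receptor, nor the hour at which muscle was taken is given in the labels. Each array held the RNA of 1 biological replicate, so that differences between rats and differences between arrays cannot be told apart.

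Genes were ranked by the mean and by the SD of 5 values. The values were log2 intensities made with RMA (robust multi-array average), a procedure that removes background, gives every array the same distribution of values and combines a transcript's probes into 1 value. The table held 36685 rows, and 14824 of them carried exactly 1 gene symbol, which gave 14557 genes after the brightest row of each gene was kept. Probes differ in how well they bind, so a rank by mean is a rank of array signal and not of transcript number. A background ceiling of 2.36 was set at the 95th percentile of the means of 209 olfactory and vomeronasal receptor genes. These genes were taken to be mostly silent in muscle. The highest of their means was 4.17, so genes a little above the ceiling may still be background. A total of 8858 genes (60.9%) lay above the ceiling.

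Skeletal muscle fibres are built from sarcomeres, in which myosin thick filaments pull on actin thin filaments when calcium is released from the sarcoplasmic reticulum. Fast fibres draw on creatine phosphate and glycogen, whereas oxidative fibres hold many mitochondria, myoglobin and a dense capillary bed and burn fatty acids. Muscle also carries a circadian clock, in which Bmal1 and Clock drive the Per, Cry and Dbp genes, and it answers fasting by turning on genes that spare glucose and release fatty acids and amino acids.

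The medians of the 5 arrays over all rows ranged from 2.46 to 2.50, but RMA makes such medians alike by design. Pearson's r between pairs of arrays, taken across rows, ranged from 0.968 to 0.973. Differences in level between genes enter into this r, so it says little about the spread of single genes. Among genes above the ceiling the median SD was 0.191, or 1.14-fold, and the SD of 216 genes (2.44%) was over 0.5. With 5 values, the 95% interval of an SD reached from 0.599 to 2.87 times the value given, if values are taken as normal.

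Promoters are shown first for 5 genes on which the description turns. Myh4 had the highest mean of all genes, Bmal1, Ucp3 and Trim63 were among the genes highest on replicates 2 and 3, and Pfkfb3 was among those lowest on them. Each run holds 250 bases before and 50 bases from the annotated start (RefSeq, build GRCr8), written 5′ to 3′ along the strand of the gene, with the stretches named below for each gene in capitals.
Myh4, chr10:52421898-52422197, plus strand: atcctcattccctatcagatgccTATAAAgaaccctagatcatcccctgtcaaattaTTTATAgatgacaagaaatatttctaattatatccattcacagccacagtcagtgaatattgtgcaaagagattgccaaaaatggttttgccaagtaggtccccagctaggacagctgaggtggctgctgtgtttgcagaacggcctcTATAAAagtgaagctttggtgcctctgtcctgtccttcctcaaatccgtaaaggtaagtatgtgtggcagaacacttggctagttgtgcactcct
Bmal1, chr1:176766078-176766377, plus strand: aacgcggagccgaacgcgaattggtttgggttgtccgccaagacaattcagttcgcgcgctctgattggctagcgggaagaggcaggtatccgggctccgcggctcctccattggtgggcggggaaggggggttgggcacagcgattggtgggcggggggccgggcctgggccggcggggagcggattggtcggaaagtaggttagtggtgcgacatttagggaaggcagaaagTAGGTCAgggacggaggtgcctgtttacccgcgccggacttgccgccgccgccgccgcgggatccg
Ucp3, chr1:164227660-164227959, plus strand: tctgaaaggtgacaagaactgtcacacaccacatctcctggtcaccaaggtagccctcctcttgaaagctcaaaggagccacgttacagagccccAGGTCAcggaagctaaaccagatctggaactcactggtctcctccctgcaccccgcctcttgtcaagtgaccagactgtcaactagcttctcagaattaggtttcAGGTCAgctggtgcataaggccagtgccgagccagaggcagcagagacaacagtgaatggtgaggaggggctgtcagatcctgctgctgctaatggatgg
Trim63, chr5:151816986-151817285, plus strand: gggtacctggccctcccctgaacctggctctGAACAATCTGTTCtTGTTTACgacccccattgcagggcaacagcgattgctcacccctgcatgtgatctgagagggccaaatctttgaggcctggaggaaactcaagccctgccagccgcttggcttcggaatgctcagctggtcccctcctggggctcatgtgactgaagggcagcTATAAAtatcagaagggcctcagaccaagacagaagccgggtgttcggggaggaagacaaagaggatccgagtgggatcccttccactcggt
Pfkfb3, chr17:71944683-71944982, plus strand: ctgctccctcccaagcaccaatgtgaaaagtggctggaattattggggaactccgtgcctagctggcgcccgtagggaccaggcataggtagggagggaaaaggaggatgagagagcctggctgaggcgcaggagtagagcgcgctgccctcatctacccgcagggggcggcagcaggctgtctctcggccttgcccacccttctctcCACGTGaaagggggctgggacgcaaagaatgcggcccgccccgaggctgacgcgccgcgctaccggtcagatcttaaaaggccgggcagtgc
In the Myh4 run, capitals mark 3 TATA boxes (TATAAA on either strand), and the one nearest the start began at -45 relative to it. In Bmal1, capitals mark the letters TAGGTCA, to which receptors of the ROR and REV-ERB families are known to bind, at -16, while a forkhead stretch (TGTTTAC) that begins at 5 is left in lower case. In Ucp3, capitals mark the nuclear receptor motif AGGTCA at -155 and -50. In Trim63, they mark a palindromic glucocorticoid site (GNACA and TGTNC, 3 bases apart) at -219, a forkhead stretch (TGTTTAC) at -205, and a TATA box at -42. In Pfkfb3, they mark the E box CACGTG at -42, a stretch to which CLOCK and BMAL1 are known to bind. TAGGTCA contains AGGTCA, so every match of the longer stretch counts for the shorter one. Promoters of other genes were searched as well and are not printed. Dbp held no CACGTG, Pdk4 held neither AGGTCA nor TGTTTAC, and Angptl4 held no AGGTCA. Lrrc30 held AGGTCA on the opposite strand at 3.

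Among 27457 promoters of distinct symbols, TATAAA stood in 14.3%, CACGTG in 6.65%, AGGTCA in 15.7%, TAGGTCA in 2.60%, TGTTTAC in 3.76% and the glucocorticoid site in 0.422%. Of the 50 genes with the highest SD above the ceiling, 44 had a promoter here. TATAAA stood in 10 of them (22.7%), AGGTCA in 9 (20.5%), CACGTG in 6 (13.6%) and TAGGTCA in 3 (6.82%). Over the 11787 genes of the array with a promoter, the shares were 12.8% for TATAAA, 13.5% for AGGTCA, 7.67% for CACGTG and 2.04% for TAGGTCA. Of the 50 genes with the highest mean, 42 had a promoter, and TATAAA stood in 7 (16.7%) and CACGTG in 3 (7.14%). These are matches of letters in short windows and were not tested.

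The brightest genes encoded the contractile apparatus and the machinery that supplies it with ATP. Of the 50 genes with the highest mean, 17 encode mitochondrial proteins, 13 encode proteins of the myofibril and its Z disc, and 4 act in glycogen breakdown, glycolysis or the creatine kinase reaction. Only 4 genes reached a mean of 11, 32 reached 10 and 286 reached 8. The median SD of the 50 brightest genes was 0.0867, and 42 of them were among the 50 brightest on every one of the 5 arrays. The order within the list was not resolved, because the ranges of neighbouring genes overlapped for 47 of 49 pairs of neighbours.

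**Figure D1:**
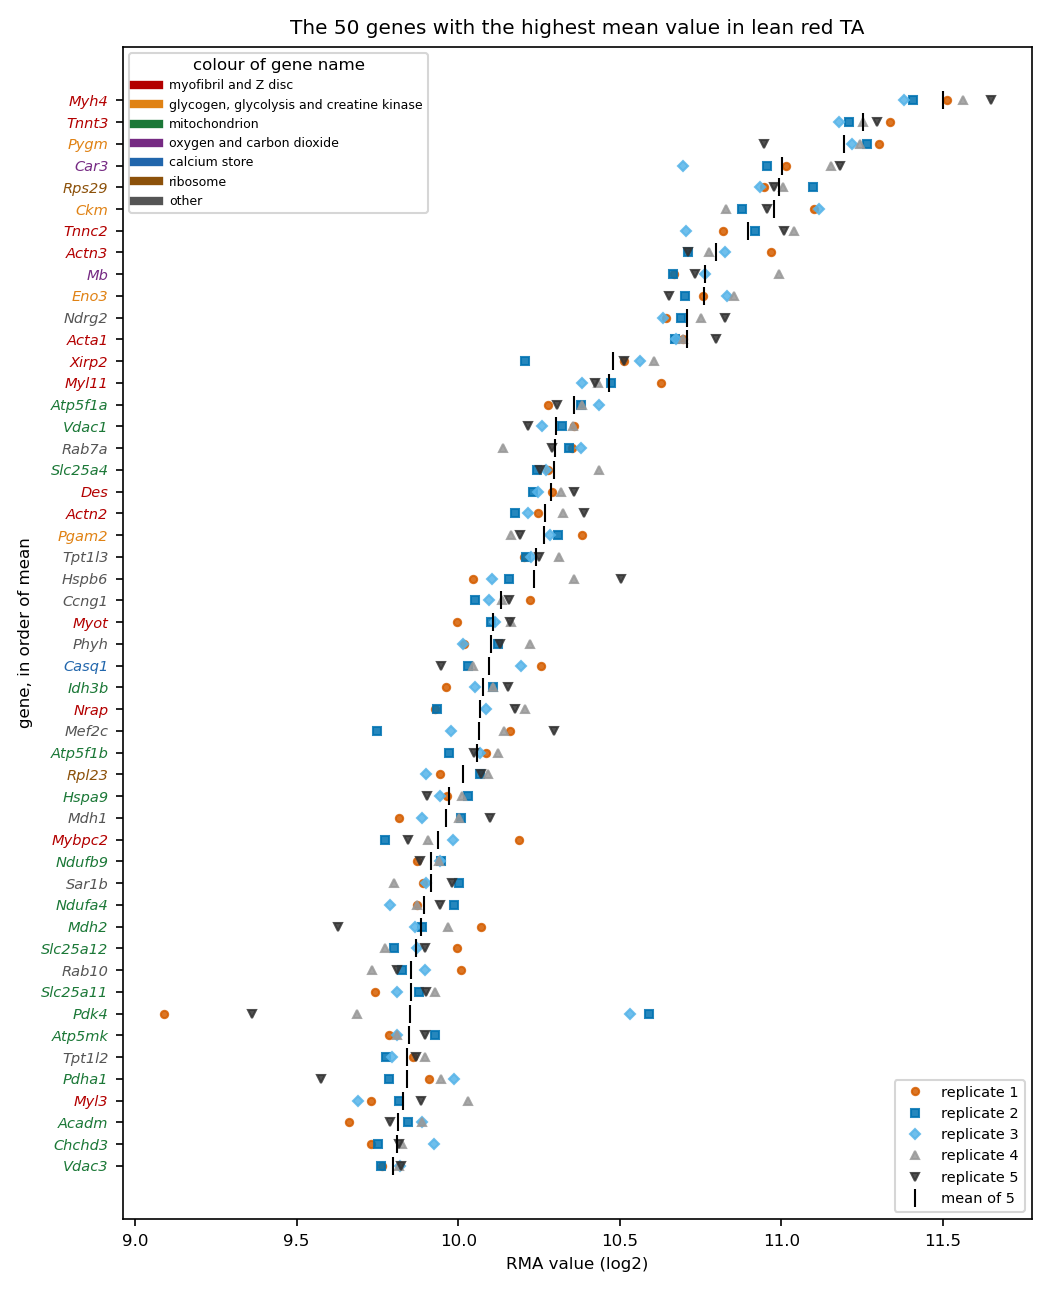
Log2 values of the 50 genes with the highest mean in lean red TA, 1 row per gene in order of mean, with 1 symbol per replicate, a bar for the mean of 5 and gene names coloured by role. Myh4 leads at a mean of 11.50, and Pdk4 is the gene whose 5 points lie farthest apart (9.09 to 10.59).

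The thick filament was led by Myh4, which encodes the fast IIb myosin heavy chain. Its values were 11.51, 11.41, 11.38, 11.56 and 11.65 on replicates 1 to 5, with a mean of 11.50 ± 0.11 (SD, n = 5). Myl11, a fast regulatory light chain, stood at 10.47 ± 0.09, and Mybpc2, the fast myosin-binding protein C, at 9.94 ± 0.16. The slow or β heavy chain Myh7 had values of 8.95, 8.81, 8.31, 9.10 and 8.99 and ranked 140, with replicate 3 lowest. The other fast chains, IIa (Myh2) and IIx (Myh1), had no row with their symbol alone, and neither did Pvalb or Atp2a1, so no value is given for them. The embryonic chain Myh3 averaged 2.50 and the cardiac chain Myh6 averaged 2.25, near and below the ceiling.

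Thin filament and Z disc genes held 8 of the 50 highest means. Fast troponin T (Tnnt3) stood at 11.25 ± 0.06, fast troponin C (Tnnc2) at 10.90 ± 0.14 and skeletal actin (Acta1) at 10.71 ± 0.05. The Z disc crosslinker Actn3, found in fast fibres, averaged 10.80 ± 0.11, and its relative Actn2 averaged 10.27 ± 0.09. Desmin (Des), the intermediate filament that ties Z discs together, was at 10.29 ± 0.05, and the Z disc proteins Xirp2 and Myot were at 10.48 ± 0.16 and 10.11 ± 0.07. All 21 measured members of this list lay above the ceiling, and 18 were among the 500 brightest genes. For this and the following lists, the 50, 100 and 500 brightest make up 0.343%, 0.687% and 3.43% of all genes. All of these lists were chosen with earlier results of these data known, so their counts describe these values and were not tested.

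Set side by side, the listed genes of fast and slow fibres were both bright, and the slow ones varied more between arrays. The 8 measured fast fibre genes had means from 9.71 to 11.50 and a median SD of 0.12. The 8 measured slow fibre genes had means from 5.93 to 9.83 and a median SD of 0.29. Replicate 3 was lowest in Myh7, in slow troponin C (Tnnc1: 8.12, 8.19, 7.45, 8.29 and 8.02 on replicates 1 to 5), in slow troponin T (Tnnt1: 8.57, 8.36, 8.02, 8.74 and 8.26) and in the slow calcium pump Atp2a2 (9.11, 9.07, 8.35, 9.22 and 8.82). On each of these 4 genes replicate 4 was highest. It was highest in 5 of the 8 slow genes, and in 14.8% of all genes above the ceiling. Replicate 3 was also lowest in Myl3 and Tpm3, but Tpm3 was highest on replicate 1. Casq2 and Csrp3 were lowest on replicate 1. Among all genes above the ceiling, replicate 3 was lowest for 17.0%. Over the 8 slow genes above the ceiling, values averaged -0.32 log2 units on replicate 3 and 0.23 on replicate 4, relative to each gene's own mean. Csrp3, a muscle LIM protein listed with them, behaved otherwise, with 7.13 on replicate 1 and 8.03 to 8.35 on the other arrays.

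The label of red muscle was set against these genes. Myoglobin (Mb), the oxygen store of oxidative fibres, had values of 10.67, 10.66, 10.76, 10.99 and 10.73 and ranked 9. The genes of oxidative metabolism described next were also high. The brightest gene with a row of its own, however, was that of a fast glycolytic myosin. A row with several symbols averaged 11.71 and a row with no symbol 11.98, both above Myh4, and the myosins Myh1 and Myh2 could not be read. Whether the tissue was purely red cannot be judged from 5 arrays of 1 muscle with no pale muscle beside them. Sarcolipin (Sln), which regulates the calcium pump and is abundant in slow rodent muscle, was dim at 2.26, 3.23, 3.26, 2.96 and 3.45.

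Fuel supply outside the mitochondria was led by Pygm, muscle glycogen phosphorylase, at 11.30, 11.27, 11.22, 11.24 and 10.94. Creatine kinase (Ckm) averaged 10.98 ± 0.13, and the glycolytic enzymes Eno3 and Pgam2 averaged 10.76 ± 0.09 and 10.27 ± 0.09. Of 16 measured glycolysis and glycogen genes, 11 were among the 500 brightest. Car3, a carbonic anhydrase abundant in slow muscle and in fat cells, stood at 11.00 ± 0.19. Of the 14 measured adipocyte markers, which include Car3, 12 lay above the ceiling, beside 60.9% of all genes. Among the 14, 3 were in the 500 brightest genes, namely Car3, Lpl (9.12) and Fabp4 (8.08). Lpl is also in the fatty acid list described below. The median of the 14 means was 3.48, with Adipoq at 3.59 and Lep at 1.93. Ampd1, the AMP deaminase of muscle, averaged 9.54 ± 0.12.

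Genes of oxidative phosphorylation were bright and even. All 32 measured members lay above the ceiling, 26 were among the 500 brightest genes, and their median SD was 0.09. The median SD of all genes with means from 8 to 10 was 0.104, so this evenness was near that of genes of like level. ATP synthase subunits led (Atp5f1a 10.36 ± 0.06 and Atp5f1b 10.06 ± 0.06), followed by the complex I subunit Ndufb9 (9.92 ± 0.04) and Ndufa4 (9.89 ± 0.08). The citric acid cycle and its shuttles had the same evenness, with 9 of 17 measured members among the 100 brightest genes and a median SD of 0.10. Its leading members were Idh3b, a subunit of isocitrate dehydrogenase, at 10.08 ± 0.07 and the malate dehydrogenases Mdh1 and Mdh2 at 9.96 ± 0.11 and 9.88 ± 0.16. The adenine nucleotide carrier Slc25a4 (10.30 ± 0.08) and the outer membrane channels Vdac1 (10.30 ± 0.06) and Vdac3 (9.80 ± 0.03) were in the same range.

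Fatty acid genes were nearly as bright and less even. All 25 listed genes of uptake and β-oxidation were measured, and 15 were among the 500 brightest, led by Acadm, the medium chain acyl-CoA dehydrogenase, at 9.81 ± 0.09 and by Hadha, a subunit of the trifunctional protein, at 9.50 ± 0.16. Replicate 1 was lowest for 21 of the 25. Fabp3, the fatty acid carrier of heart and muscle, had values of 8.42, 9.30, 9.26, 9.17 and 9.20, and the fatty acid translocase Cd36 had 9.08, 9.79, 9.58, 9.54 and 9.44. In both genes replicate 1 stood below the other 4 arrays. Replicates 2 and 3 were the 2 highest in 11 of the 25 genes and the 2 lowest in 0, with mean shifts of 0.13 and 0.11. Those orders held in 13.8% and 10.2% of all genes above the ceiling. Replicate 1 was also lowest for 17 of 32 oxidative phosphorylation genes and 12 of 17 citric acid cycle genes. The shifts there were smaller (means of -0.06 and -0.08, against -0.22 in the fatty acid list). Over all genes above the ceiling, replicate 1 was lowest for 16.2%.

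Regulators of the oxidative programme ranked below the leading enzymes, though Ppargc1a was above some dimmer ones, such as Got2 at 6.77. Ppargc1a, the coactivator of mitochondrial genes, averaged 7.72 ± 0.33, Tfam, which packages mitochondrial DNA, averaged 6.14 ± 0.08, and the receptors Ppara and Ppard averaged 6.05 ± 0.10 and 4.86 ± 0.30. Slc2a4, the insulin-responsive glucose transporter, averaged 7.06 ± 0.17. Mef2c was the 1 transcription factor among the 50 brightest genes, at 10.06 ± 0.21. Myod1 averaged 4.71 ± 0.51 and Myog 3.37 ± 0.16.

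Above the ceiling, spread among the rats fell with level. The median SD was 0.24 for 3813 genes with means from the ceiling to 4, 0.178 for 3349 genes from 4 to 6, 0.122 for 1410 genes from 6 to 8 and 0.104 for 254 genes from 8 to 10. Of the 32 genes above 10 none had an SD over 0.5, and their median was 0.0867. In all, 13 genes above the ceiling had an SD over 1 and 579 genes (6.54%) spanned more than 1 log2 unit between the lowest and the highest array.

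**Figure D2:**
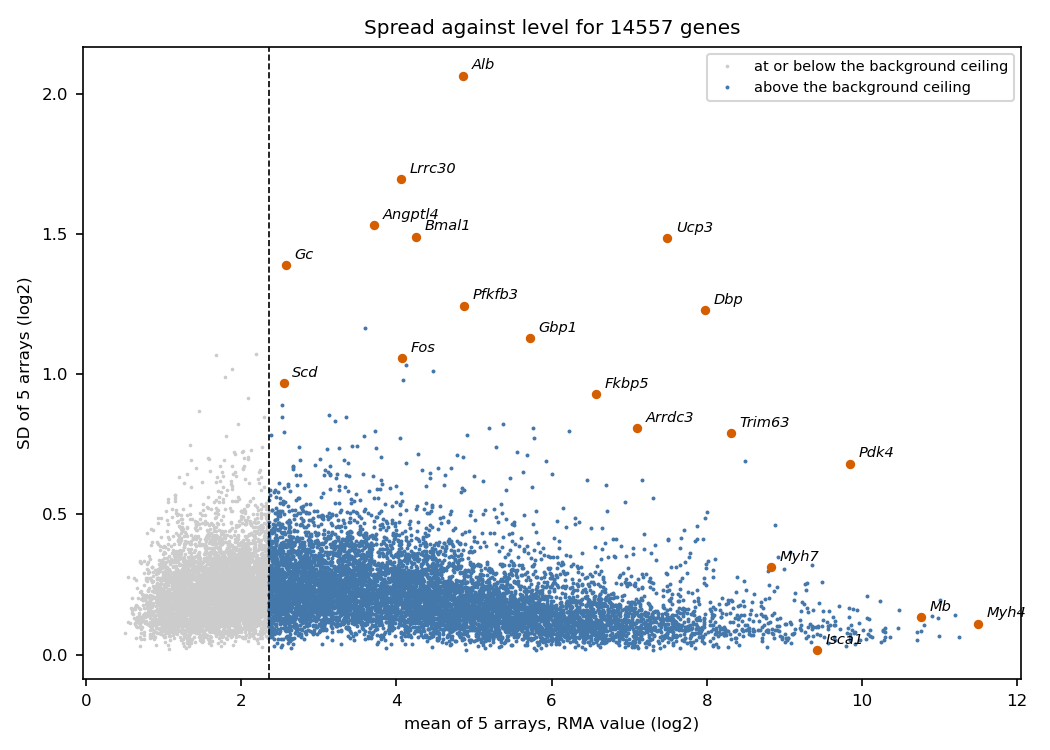
SD over 5 arrays (vertical, log2) against mean (horizontal, log2) for 14557 genes, with the background ceiling of 2.36 as a dashed line and named genes in orange. Most genes lie below an SD of 0.5, and Ucp3 (1.48), Dbp (1.23), Trim63 (0.789) and Pdk4 (0.681) stand out among genes with means above 7.

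Among the 100 genes with the highest SD above the ceiling, replicates 2 and 3 were the 2 highest for 33 genes and the 2 lowest for 17, which makes 50 genes. The other 9 pairs of arrays took that place for 7 to 36 of the 100 genes, the most being replicates 1 and 5. Over all 8858 genes above the ceiling, the shares for the 10 pairs ranged from 17.2% to 24.0%, and replicates 2 and 3 had the highest of these as well. The 100 genes were chosen by these same values, so the counts describe them and were not tested. Without the listed liver genes described later, the count was 53.

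**Figure D3:**
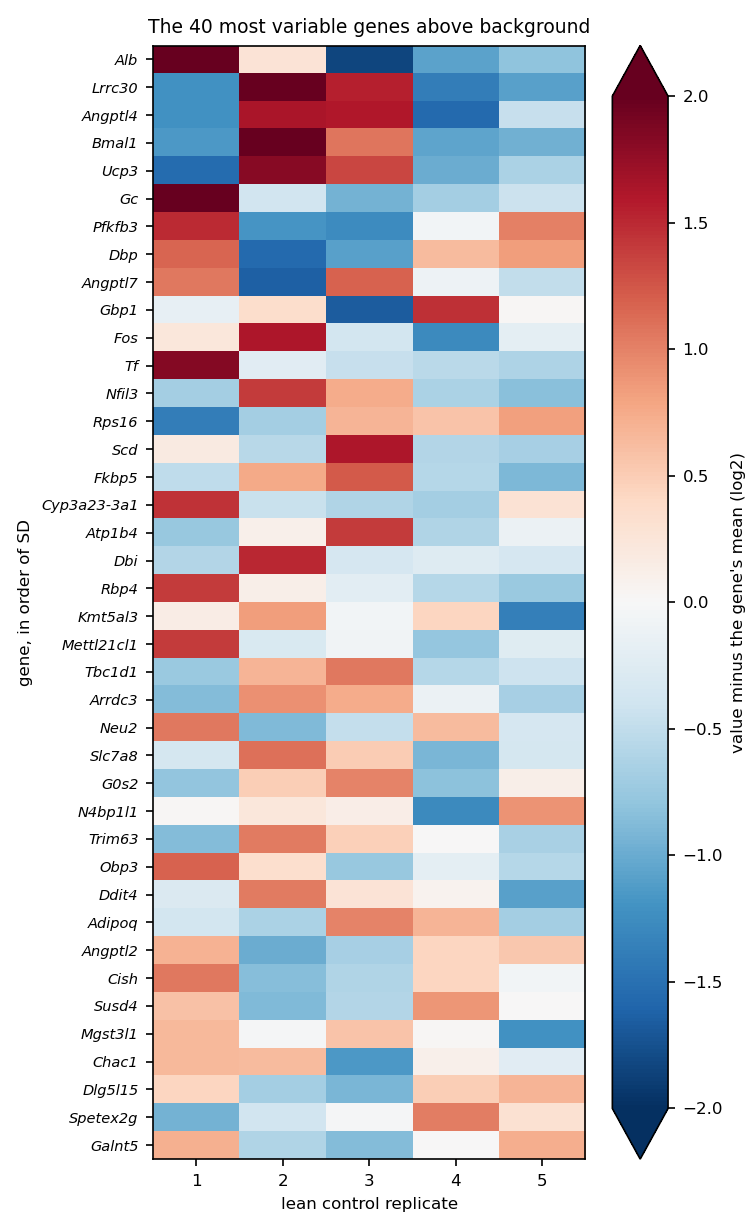
Values of the 40 named genes with the highest SD above the ceiling on each replicate, shown as the difference from the gene's mean of 5 (log2, red above and blue below, colours saturating at 2). Replicates 2 and 3 are the 2 highest in 13 genes and the 2 lowest in 8, and replicate 1 stands alone in Alb, Gc and Tf.

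Several clock genes were split in this way. Bmal1, the positive factor of the clock, had values of 3.10, 6.35, 5.33, 3.20 and 3.29 on replicates 1 to 5. Replicates 2 and 3 were high and the lower of them lay 2.04 log2 units above the highest of the other arrays. Nfil3, a repressor at D boxes that cycles with Bmal1, had 3.79, 5.88, 5.22, 3.84 and 3.64. Dbp, an activator at D boxes whose transcript peaks opposite to that of Bmal1, had 9.14, 6.43, 6.89, 8.61 and 8.82. Here replicates 2 and 3 were the low ones, by at least 1.72. Bhlhe40, a repressor of the clock, followed Dbp with 7.74, 6.50, 6.63, 7.09 and 7.87. Clock itself kept the order of Bmal1 by a small margin, with 6.58, 6.98, 6.91, 6.54 and 6.70, and Per2 that of Dbp, with 5.15, 4.86, 4.78, 5.21 and 4.88. Npas2, a relative of Clock, had 3.5, 3.75, 4.0, 3.92 and 4.07, and the repressor Cry2 had 6.68, 6.48, 6.71, 6.81 and 6.54, without that order. In all, replicates 2 and 3 were the 2 highest in 3 of 4 genes of the morning arm. They were the 2 lowest in 4 of 7 of the evening arm. Over all genes above the ceiling, 13.8% had the first order and 10.2% the second. The genes of both arms were chosen with earlier results of these data known, so these counts describe them and were not tested.

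Genes known to respond to fasting and fatty acids were high on the same arrays. Ucp3, a mitochondrial carrier of muscle that is known to rise in fasting, had 5.96, 9.31, 8.83, 6.51 and 6.86, a 10.2-fold range. Angptl4, a secreted inhibitor of lipoprotein lipase, had 2.49, 5.35, 5.32, 2.15 and 3.25. Pdk4, the kinase that shuts pyruvate dehydrogenase, had 9.09, 10.59, 10.53, 9.69 and 9.36 and was the 1 gene among the 50 brightest with an SD above 0.5. The lower of replicates 2 and 3 lay above the highest other array by 1.96 in Ucp3, 2.07 in Angptl4 and 0.847 in Pdk4. These gaps were not tested. Of 17 measured members of the fasting list above the ceiling, replicates 2 and 3 were the 2 highest in 11, where 13.8% of all genes above the ceiling had that order. The members' median SD was 0.46, beside 0.191 for all genes above the ceiling. This list too was chosen with earlier results known, so its count and median SD describe it and were not tested.

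Both muscle ubiquitin ligases on the fasting list had the same order. Trim63, the ubiquitin ligase MuRF1 that tags myofibrillar proteins, had 7.45, 9.36, 8.79, 8.32 and 7.66, and Fbxo32, the ligase atrogin-1, had 8.42, 9.62, 9.0, 8.75 and 8.63. Foxo1, a factor known to act on both and also on that list, had 5.03, 6.47, 6.45, 5.18 and 5.31. Fkbp5, a co-chaperone induced by glucocorticoids, had 6.06, 7.33, 7.79, 6.00 and 5.67. Of the protein turnover list, which shares the 2 ligases, the proteasome subunits Psma1 and Psmc1 were even, with Psma1 at 7.56 ± 0.04 and Psmc1 at 7.42 ± 0.05. Replicates 2 and 3 were the 2 highest in 4 of its 14 measured genes (28.6%), where 13.8% of all genes above the ceiling had that order.

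Among the other genes of high SD, several had this order. Lrrc30, a leucine-rich repeat protein, had 2.84, 6.19, 5.61, 2.68 and 2.97 and the second highest SD above the ceiling (1.70). Tbc1d1, a Rab GTPase-activating protein that acts on glucose transporter traffic, had 5.02, 6.44, 6.82, 5.19 and 5.35. Slc7a8, a carrier of neutral amino acids, had 5.88, 7.34, 6.73, 5.32 and 5.88, and the arrestin-domain protein Arrdc3 had 6.23, 8.02, 7.85, 6.98 and 6.43. In the opposite direction went Pfkfb3, which makes the activator of phosphofructokinase, with 6.36, 3.68, 3.62, 4.82 and 5.87. Cish, a suppressor of cytokine signalling, had 5.10, 3.20, 3.45, 4.48 and 3.99, and Angptl2 had 6.47, 4.78, 5.11, 6.20 and 6.31. In the endothelial list replicates 2 and 3 were the 2 highest in 7 of 14 members and the 2 lowest in 2, with mean shifts of 0.13 and 0.07. The shares over all genes above the ceiling were 13.8% and 10.2%.

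**Figure D4:**
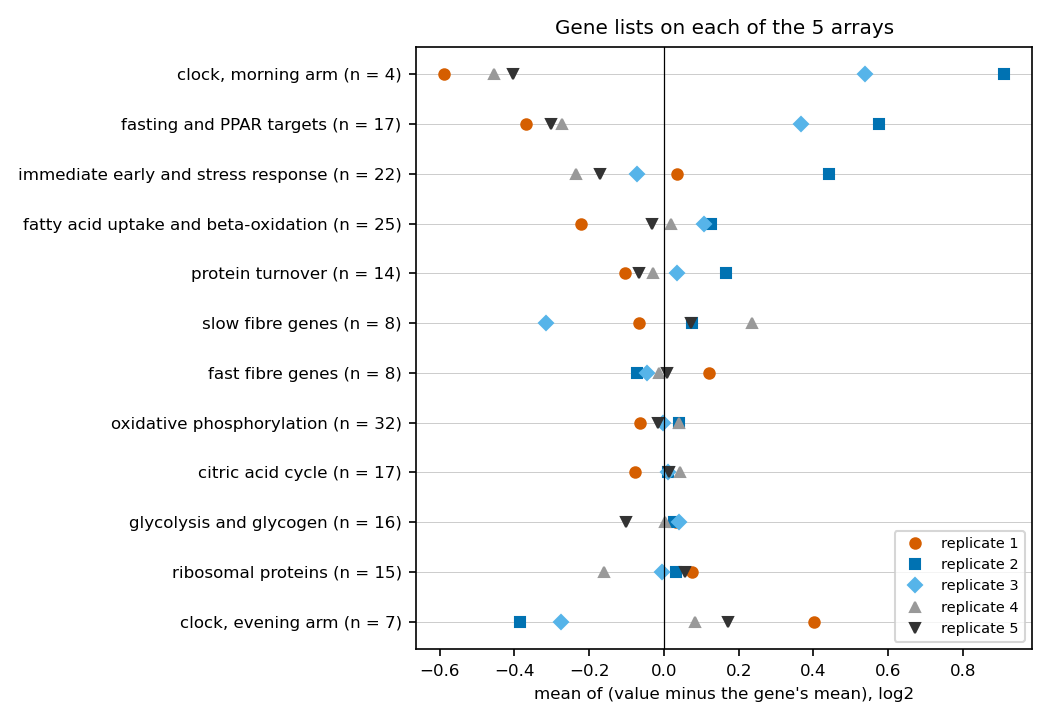
Mean difference from the gene's own mean (log2, horizontal) over the members of 12 gene lists that lie above the ceiling, 1 symbol per replicate. The morning arm of the clock (0.91 and 0.54) and the fasting list (0.58 and 0.37) are highest on replicates 2 and 3, the evening arm is lowest on them (-0.38 and -0.27), and the fast fibre, oxidative phosphorylation and citric acid cycle lists stay between -0.08 and 0.12 on every array.

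The labels give neither the hour nor the feeding state of each rat at sampling, and these cannot be told apart here from any other difference between rats or arrays. Immediate early genes, which respond within minutes to handling or sampling, followed another order. Fos had 4.30, 5.70, 3.71, 2.80 and 3.88, and its SD of 1.06 was 0.634 without replicate 2. The 22 members of this list above the ceiling averaged 0.44 on replicate 2 and -0.07 on replicate 3, relative to each gene's own mean. Replicates 2 and 3 were the 2 highest in 4 of them (18.2%), beside 13.8% of all genes above the ceiling.

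Other genes stood highest on replicate 1, among them genes of plasma proteins that liver makes. Albumin (Alb), the main protein of blood plasma, had the largest SD of all 14557 genes, with 8.30, 5.14, 3.03, 3.79 and 4.05. Gc, the vitamin D carrier of plasma, had 5.03, 2.19, 1.62, 1.89 and 2.14, and transferrin (Tf), the iron carrier, had 5.95, 3.89, 3.67, 3.58 and 3.51. Replicate 1 stood apart in all 3 genes, and replicate 2 came second. Without replicate 1 their SDs were 0.873, 0.262 and 0.167, against 2.06, 1.39 and 1.03 with it. Of the 10 genes that exceeded the median of the other arrays most on replicate 1, 8 are in a list of liver genes. The list was drawn up with these values known, so this count only describes them.

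That list of liver genes was written after these values had been seen, so its counts below describe them and were not tested. It held 60 genes, 40 of which were measured, and 35 of the 40 (87.5%) had their highest value on replicate 1, where 21.7% of all genes did. The median of the 40 genes was 2.94 on replicate 1 and 2.01, 1.87, 1.90 and 1.78 on replicates 2 to 5. On replicate 1, 28 of them exceeded the ceiling, and on the other arrays 10 or 11 did. They included apolipoproteins (Apoc1 at 4.01, 2.30, 1.54, 1.51 and 1.58), the retinol carrier Rbp4 (3.92, 2.64, 2.31, 1.96 and 1.79) and the cytochrome Cyp3a23-3a1 (3.97, 2.09, 1.94, 1.84 and 2.82). Liver was taken from the same animals in the study, and the part of RNA from liver in these values was not tested. Without replicate 1, the number of genes above the ceiling with an SD over 0.5 was 240, against 216 with all 5 arrays. Leaving out each array in turn gave 217 to 250, so the rise was not particular to replicate 1.

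**Figure D5:**
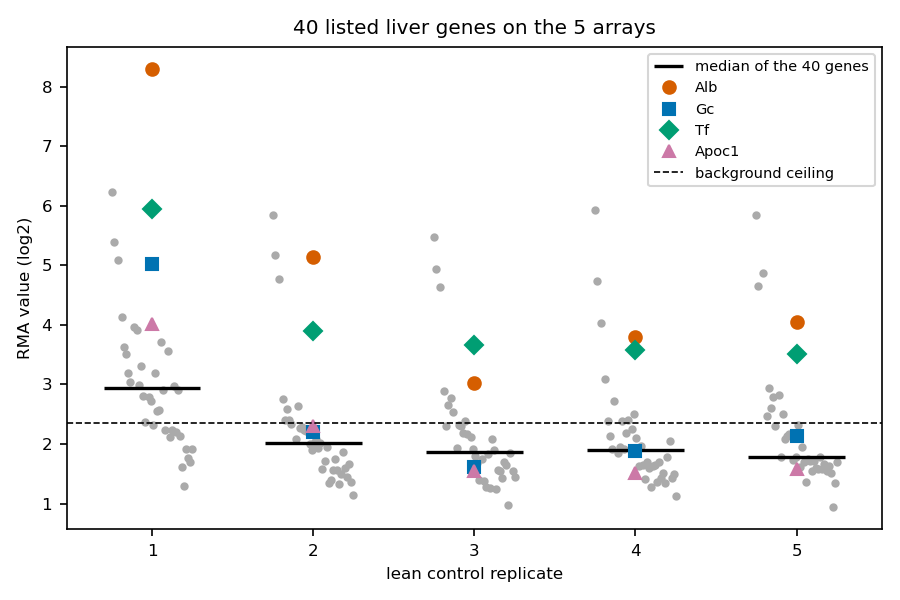
Log2 values of 40 measured liver genes on each replicate (grey points, with 4 genes in colour), their median as a black bar and the background ceiling of 2.36 as a dashed line. The median is 2.94 on replicate 1, and it is between 1.78 and 2.01 on the other 4 arrays.

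Some variable genes followed neither order. Scd, the desaturase that makes oleic acid, had 2.73, 2.0, 4.17, 1.97 and 1.88, and without replicate 3 its SD was 0.393. Dbi, the acyl-CoA binding protein, had 2.77, 4.85, 3.01, 3.09 and 3.01, with an SD of 0.141 without replicate 2. These 2 genes rested on a single array. Gbp1, an interferon-induced GTPase, had 5.55, 6.07, 4.05, 7.18 and 5.74, and its SD without replicate 3 was still 0.728. Adipoq, the adipocyte hormone, had 3.22, 2.96, 4.58, 4.27 and 2.91, high on replicates 3 and 4. The fat cell marker Plin1 (3.46, 3.73, 3.46, 3.01 and 3.21) did not follow Adipoq, and over the 12 adipocyte markers above the ceiling the mean shifts ranged from -0.13 to 0.14. Rps16, at 2.70, 3.40, 4.77, 4.65 and 4.90, belongs to a family with near-identical copies, so that its row is uncertain.

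At the other end, the 10 steadiest genes above the ceiling had SDs from 0.0154 to 0.0243. Isca1, which assembles iron-sulfur clusters in mitochondria, was the steadiest at 9.41, 9.44, 9.40, 9.42 and 9.43. Ctnnb1, or β-catenin, had 7.30, 7.30, 7.31, 7.34 and 7.31, and the mitochondrial ribosomal protein Mrpl54 had 7.84, 7.88, 7.81, 7.83 and 7.86. Ro60, Tollip, Sec23a, Rpl27, Cd48, Usp24 and Nxph4 made up the rest. The lowest values of 8858 SDs from 5 arrays each were chosen here, and in other rats these SDs may be larger.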

How the data were processed

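RNA of the red TA was hybridised to Rat Gene 2.1 ST arrays from 100 ng of total RNA per rat, per the labels. The deposited values are log2 intensities that the authors made with RMA, with the affy and oligo packages named in the methods of the study. Versions and the genome build are not given in the sources used here. Because RMA gives every array the same distribution, a shift shared by most genes of an array is removed, and saturation of the brightest probes cannot be seen. Depth has no meaning for arrays, and their number limits the precision.

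Only the 5 lean control arrays were used. Rows were named through the platform annotation. Of 36685 rows, 829 with several symbols and 21032 with none were left out, and for 234 genes with several rows the row with the highest mean over the 5 arrays was kept. Mean, SD and ranks were computed with pandas 2.3.3 and numpy on Python 3.11.15 and were checked on simulated data. No group was compared, and no p-value was computed.

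The members and lists were chosen with earlier results of these data known. There were 34 lists of pathways and cell markers with 625 genes, of which 434 were measured, and older symbols were updated only where they led to 1 gene. Named genes were the 50 highest means, the 10 highest SDs, the 40 highest and 10 lowest SDs above the ceiling, the 3 brightest and 2 most variable members of each list and 29 genes always named, 24 of which were measured. Provisional, receptor and small RNA symbols were passed over. Outside this rule, Apoc1, Calcr, Cd3e, Foxo1, Hspa1b, Lep, Myf5, Myh6, Myog, Npas2, Plin1, Ppara, Ppard, Psma1, Psmc1, Ptprc, Tfam, Tnmd, Tnnc1 and Tnnt1 were named after their values were seen. Promoters came from RefSeq (GRCr8) by symbol for 11787 of the 14557 genes. Alternatives changed the scaling, the row of a gene, the ceiling and the measure of spread, and each array was left out in turn.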

Additional observations from a re-analysis of the deposited data

Results flagged for a closer look

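In 10 of 137 groups of 5 values (the genes with the highest means and SDs, the genes always named, the lists, the median of each array and the spread of its values about the gene means), 1 array lay far from the others, with a gap of more than 0.71 of the whole range. Chance flags about 1 in 20 such groups, and among all genes above the ceiling 461 (5.20%) passed the same limit.

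Replicate 1 was the far array for Tf (5.95, highest), Gc (5.03, highest) and Fabp3 (8.42, lowest), and for the citric acid cycle list, whose members averaged -0.0773 there relative to their own means. Replicate 5 was far for Pygm (10.94, lowest), Acta1 (10.80, highest) and the glycolysis and glycogen list (-0.102, lowest). Replicate 2 was far for Xirp2 (10.21, lowest) and Dbi (4.85, highest), and replicate 4 for Slc25a4 (10.44, highest). The shifts of Acta1, Slc25a4 and the lists were small on the log2 scale.

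Signal above the ceiling was also present in rows that entered no rank, in 382 rows with several symbols and in 9827 rows with no symbol. Of these, 9 and 64 rows were at least as bright as the gene ranked 50 (9.80), and the brightest unnamed row averaged 11.98, above Myh4.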

How the results depend on the processing

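Of the 50 brightest genes, 49 or 50 were also among the 50 brightest under each alternative run for them, including each array left out. Centring or quantile normalising the 5 arrays and other choices of row left the count above the ceiling, the median SD and the most variable genes close to their values, with 49 or 50 of the 50 most variable genes shared. The ceiling mattered more. With a fixed ceiling of log2 5, 3147 genes lay above it, their median SD was 0.135, 37 of them had an SD over 0.5 (recomputed after seeing the data), and 14 of the 50 most variable genes were shared. The median SD was 0.174 with the 99th percentile of the receptor genes and 0.183 with receptors of newer symbols included, an alternative chosen after seeing the data. The measure of spread mattered for the most variable genes. With the median absolute deviation, 15 of the 50 most variable genes over all genes and 20 of those above the ceiling were shared, and with the SD relative to genes of like mean 29 and 29 were shared. Leaving out each array in turn gave 8505 to 8809 genes above the ceiling, a median SD of 0.181 to 0.189, 217 to 250 genes with an SD over 0.5, and 32 to 42 and 34 to 42 shared genes. The count of the 100 most variable genes with replicates 2 and 3 at one end ranged from 48 to 74 over 5 alternatives chosen after seeing the data. For 207 named genes, 0 of 414 means moved by more than 1 SD and 12 of 414 SDs by more than their standard error under the 2 scalings. No paired analysis was possible because 1 group was described and no test was made.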

Other observations

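Cells other than muscle fibres were represented unevenly. Of the 17 measured matrix genes all lay above the ceiling, led by Sparc (8.71 ± 0.10) and decorin (Dcn, 8.36 ± 0.13), and type I collagen (Col1a1) stood at 7.26, 6.70, 6.92, 6.52 and 6.93. The endothelial cadherin Cdh5 averaged 7.30 ± 0.09 and the water channel Aqp1 6.87 ± 0.15. Leukocyte genes were dimmer, with the common leukocyte antigen Ptprc at 2.79 and the T cell gene Cd3e at 1.43, while Cd74 of antigen-presenting cells reached 6.67. Of 10 measured nerve and Schwann cell genes 5 lay above the ceiling, the highest being Sox10 at 2.99. Of 9 measured tendon genes 6 lay above the ceiling, the highest being Thbs4 at 4.72, and Tnmd was the dimmest at 1.53. Over all genes, 60.9% lay above the ceiling. In bulk muscle, fewer cells of a type and less RNA per cell cannot be told apart.

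Lists of stress and repair genes differed in level. All 17 measured heat shock and chaperone genes, 19 of 20 antioxidant genes and 22 of 24 immediate early genes lay above the ceiling. So did 8 of 11 myogenic genes and 5 of 7 satellite cell genes. Over all genes the share was 60.9%, and the myogenic and satellite cell counts were not far from it. The small heat shock proteins Hspb6 (10.23 ± 0.19) and Cryab (9.72 ± 0.09) were bright, whereas the inducible Hspa1b averaged 2.78. The satellite cell gene Calcr averaged 1.90 and the early myogenic factor Myf5 2.28, both below the ceiling. Catalase (Cat) led the antioxidant genes at 9.41 ± 0.10, and the 19 members of that list above the ceiling had a median SD of 0.12. Of 16 measured interferon response genes 10 lay above the ceiling, which is near the share of all genes. Ifi27 at 8.07 ± 0.15 stood well above the next, Ifit2, at 5.31 ± 0.22.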
